A study of Mus musculus with 30 samples.

Results

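The Pali1/2 double knockout is a mouse embryonic stem cell line labelled Pali1-/-, Pali2-/-, a knockout of both PALI proteins by its label. The proteins were not measured in these data. Its course of differentiation was followed through 6 of the 30 libraries in the series, 2 each at day 0, day 4 and day 8, chosen by their titles. The series holds 5 lines at the same 3 days, and its design text calls the libraries biological duplicates. The sources used here do not say whether the duplicates of a line are separate clones, and the p-values measure the spread between these libraries. Day 0 cells were kept in serum medium with the cytokine LIF on gelatin. At day 4 and day 8 the cultures were embryoid bodies, formed after LIF was withdrawn and the cells were moved to dishes to which they do not attach. The same days of Pali wild type, and of a Pali1 knockout line, are used only for tests of whether the course differed between lines. Total RNA depleted of ribosomal RNA was sequenced, and the values are the authors' normalised counts per gene.

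Polycomb repressive complex 2 (PRC2) methylates histone H3 on lysine 27 and keeps genes for developmental regulators silent in stem cells. PALI1 and PALI2, made from the Lcor and Lcorl loci, are accessory subunits of this complex. When embryoid bodies form, cells leave the naive state of the early epiblast, pass through a primed state and then begin to form neural, mesodermal and endodermal cells.

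Column totals of the 6 libraries lay between 15470082 and 17410661 normalised counts, and 12633 to 13390 genes reached 10 in a library. Across genes, which are not independent replicates, libraries of the same day correlated at 0.948 to 0.961 (3 pairs) and libraries of different days at 0.900 to 0.935 (12 pairs). The free-text descriptions of day 0 replicate 1 and day 4 replicate 1 each name the other culture state, whereas their titles, source names and growth protocols name the same state as each other and were followed. Each of these libraries correlated best with the duplicate of its titled day. In a further 462 genes the duplicates of a double knockout group differed by more than 8-fold with at least 1 of them at 100 or more. The lowest and highest double knockout values were 62.1 and 129.5 for Lcor and 517 and 641 for Lcorl, neither gene was called between days, and a value per gene does not separate PALI transcripts from others of these loci. Changes are differences on the log2(value + 4) scale, which understates changes of low genes, and a gene was called at an adjusted p under 0.05 (limma, Benjamini-Hochberg over the 15712 genes tested).

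From day 0 to day 4, naive pluripotency genes fell and genes of the primed epiblast rose. In all, 2143 genes rose (13.6% of those tested) and 2177 fell (13.9%), and without day 0 replicate 1 the sum of 4320 came to 2695. From day 4 to day 8, when neural, mesodermal and endodermal regulators rose, 838 genes rose (5.33%) and 411 fell (2.62%). That sum of 1249 was 559 without day 4 replicate 1, 535 without day 8 replicate 1 and 734 without day 8 replicate 2. It was 440 when the spread was estimated from the 6 double knockout libraries alone. Over the whole course 2629 genes rose (16.7%) and 2226 fell (14.2%), and this sum of 4855 was 3213 without day 0 replicate 1. Without both libraries with the other description the 3 sums were 1963, 512 and 3139. After upper-quartile rescaling the higher and lower calls numbered 1955 and 2446 at the first step, 732 and 549 at the second, and 2293 and 2897 over the whole course, so the balance of the whole course turned. Both steps use the day 4 libraries, so their values are given side by side and not as independent observations.

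**Figure D1:**
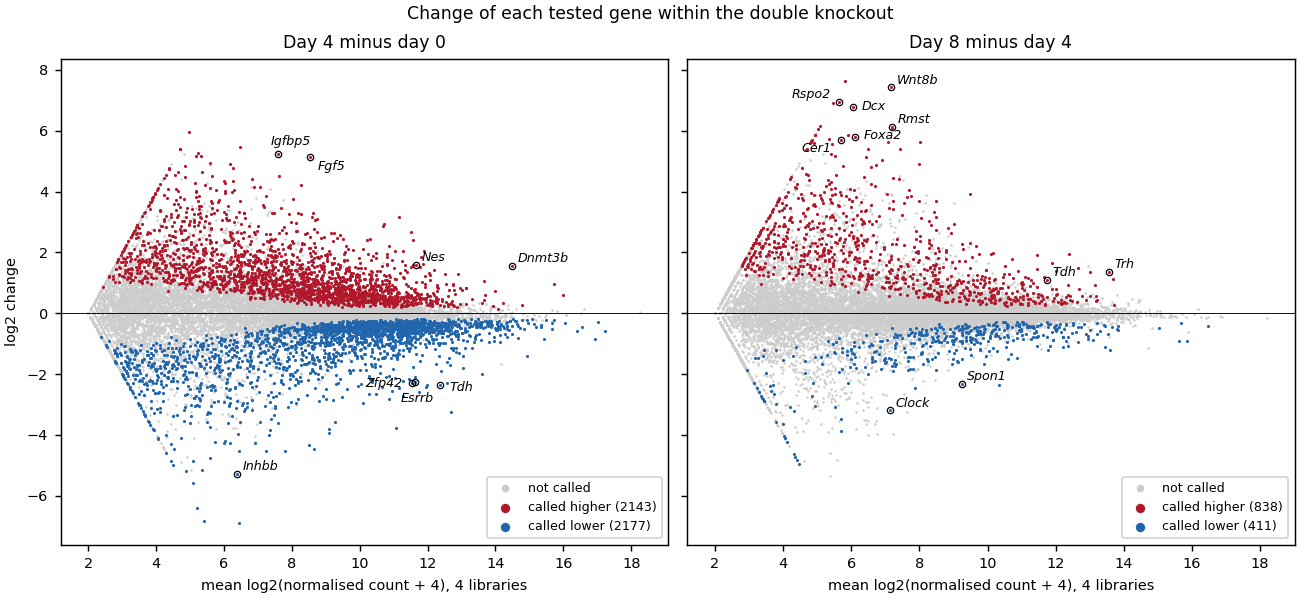
Log2 change of each of the 15712 tested genes against its mean log2(normalised count + 4) over the 4 libraries compared, for day 4 minus day 0 (left) and day 8 minus day 4 (right), with called genes in red (higher) and blue (lower). At the first step 2143 points are red and 2177 blue, and at the second 838 are red and 411 blue, with Wnt8b among the highest at the second.

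The promoters of 3 genes are shown because each gene stands for a phase of the course: Zfp42 for the naive genes that fell, Fgf5 for the primed genes that rose by day 4, and Wnt8b for the neural patterning genes that rose by day 8. Each sequence is the 250 bases upstream of the RefSeq start on GRCm38.p6, read 5′ to 3′ on the gene's strand. Capitals mark CG dinucleotides and the octamer ATTTGCAT, the recognition sequence of POU factors such as OCT4.
Zfp42: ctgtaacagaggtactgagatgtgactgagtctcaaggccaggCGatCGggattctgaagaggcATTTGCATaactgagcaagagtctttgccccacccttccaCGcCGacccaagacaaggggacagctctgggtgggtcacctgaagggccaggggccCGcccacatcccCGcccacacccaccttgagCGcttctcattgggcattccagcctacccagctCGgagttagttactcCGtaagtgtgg
Fgf5: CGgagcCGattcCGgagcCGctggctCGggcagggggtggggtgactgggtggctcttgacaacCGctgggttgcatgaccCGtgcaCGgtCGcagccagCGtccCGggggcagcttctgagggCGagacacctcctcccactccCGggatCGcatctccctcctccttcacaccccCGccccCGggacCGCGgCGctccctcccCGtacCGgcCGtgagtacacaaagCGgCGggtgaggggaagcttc
Wnt8b: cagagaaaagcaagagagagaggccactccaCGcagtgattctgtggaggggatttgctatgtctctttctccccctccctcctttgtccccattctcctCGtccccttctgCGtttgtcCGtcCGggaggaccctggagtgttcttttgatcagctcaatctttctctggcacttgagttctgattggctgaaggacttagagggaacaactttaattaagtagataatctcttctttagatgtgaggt
The Zfp42 window (chr8:43307010-43307259, minus strand) has 9 CG dinucleotides and a GC content of 58.4%. The Fgf5 window (chr5:98253934-98254183, plus strand) has 24 and 70.8%, and the Wnt8b window (chr19:44493222-44493471, plus strand) has 5 and 48.4%. The octamer, searched on both strands, is in the Zfp42 window and in 1.27% of all 15068 windows of this length. Such a match describes the letters only. Of the tested genes, 12006 had a window by symbol, and for a gene with several windows the highest CG count was taken. The median over these genes was 16 CG dinucleotides. It was 15 for all called genes that fell by day 4 and 18 for all that rose. The median was 7 for the 201 genes that fell at least 4-fold by day 4 and 14 for the 265 that rose at least 4-fold. It was 13 for the 237 that rose at least 4-fold from day 4 to day 8 and 14 for the 27 that fell as much. These medians were not tested.

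Naive pluripotency genes, which mark the state of the early epiblast, fell by day 4. Of 18 tested naive pluripotency genes 16 fell and 0 rose, with a median change of -2.26 beside 0.01 for all tested genes, and 14 to 16 fell without any 1 of the 4 libraries. Zfp42 (chromosome 8, 43295063 to 43306980, minus strand, GRCm38), the naive marker REX1, stood at 7968 and 5560 at day 0, 1525 and 1197 at day 4, and 2065 and 1637 at day 8. Both later days lay below day 0 without overlap, and the fall to day 4 was 2.30 on the log2 scale (SE 0.308, limma adjusted p = 3.25e-05). Tfcp2l1, a naive transcription factor, went from 5459 and 5352 to 1023 and 1267 at day 4 and fell by 2.24 (limma adjusted p = 6.99e-06). Klf5, a Kruppel-like factor of the naive network, went from 1327 and 1565 to 272 and 308 and fell by 2.30 (limma adjusted p = 1.77e-07). Esrrb, an orphan nuclear receptor of the same network, stood at 6255 and 7774, then 1036 and 2001, then 2974 and 2788. Its day 4 libraries were the lowest of the 6, and it fell by 2.27 to day 4 (limma adjusted p = 2.52e-06).

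Core pluripotency factors also fell. Of 15 tested members 11 fell by day 4 and 0 rose, with a median of -0.95, and 14 were lower at day 8 than at day 0, with a median of -1.22. Sox2 (chromosome 3, 34650405 to 34652461, plus strand), which binds DNA with OCT4, stood at 9790 and 10111 at day 0, 5554 and 6272 at day 4, and 6774 and 5887 at day 8. Days 4 and 8 overlapped each other and lay below day 0, and Sox2 fell by 0.75 to day 4 (SE 0.103, limma adjusted p = 3.57e-05). Pou5f1, which encodes OCT4, stood at 19672 and 19934, then 12329 and 8509, then 8506 and 10058. It fell by 0.95 to day 4 (limma adjusted p = 0.00907), a call lost without day 4 replicate 2 (adjusted p = 0.127). Nanog stood at 10242 and 7532, then 6432 and 5301, then 5927 and 5738, and its fall of 0.59 to day 4 (limma adjusted p = 0.0168) was lost without day 0 replicate 1 (adjusted p = 0.236) or day 4 replicate 2 (adjusted p = 0.156).

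Of the core pluripotency list, Tdgf1, Fgf4 and Tdh were among the members that fell by day 4. Tdgf1, the Nodal co-receptor Cripto, stood at 18010 and 22610 at day 0 and at 2242 and 2006 at day 4. It fell by 3.25 (SE 0.323, limma adjusted p = 1.93e-06). Fgf4, the ligand that starts the exit from the naive state, went from 5711 and 4297 to 805 and 619 and fell by 2.80 (limma adjusted p = 4.78e-07). Tdh, threonine dehydrogenase, which feeds glycine to one-carbon metabolism, went from 12205 and 11883 to 2207 and 2463 and then to 5505 and 4485. Its fall to day 4 was 2.37 (limma adjusted p = 1.87e-08), and it rose by 1.09 from day 4 to day 8 (limma adjusted p = 0.000226).

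From day 4 to day 8, 6 of the 18 naive genes rose and 0 fell, with a median of 0.64. The count of risers was 0 without day 4 replicate 1 or without day 8 replicate 1, and 3 without day 8 replicate 2. Tfcp2l1 was at 2997 and 2180 at day 8 and rose by 1.16 from day 4 (limma adjusted p = 0.00814), with adjusted p = 0.0974 without day 4 replicate 1 and 0.123 without day 8 replicate 1. The day 8 values of Tfcp2l1 still lay below both day 0 libraries. Over the whole course 13 naive genes fell and 0 rose, with a median of -1.25.

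Genes of the 2-cell-like state, a program of the early embryo that rare stem cells switch on, were also lower at day 4. Of 23 tested members 16 fell and 0 rose, with a median of -2.02, but 7 fell without day 0 replicate 1, 10 without day 4 replicate 2, and 3 without both libraries with the other description. Zscan4a was listed at 360 and 189 at day 0, 39.4 and 20.5 at day 4, and 161 and 36.8 at day 8. The day 8 libraries thus lay far apart, and the fall of Zscan4a to day 4 was 3.02 (limma adjusted p = 0.000586, or 0.0556 with the spread of the 6 libraries alone). Copies of Zscan4 are nearly identical in sequence, which leaves the assignment of reads to one or another uncertain.

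Primed epiblast genes moved the other way. Of 26 tested members 13 rose by day 4 and 4 fell, with a median of 0.96, and without 1 library 9 to 11 rose. Fgf5 (chromosome 5, 98254184 to 98277030, plus strand), the marker of the primed epiblast, stood at 58.6 and 60.0 at day 0, 2267 and 2130 at day 4, and 911 and 1863 at day 8. The day 0 values were the lowest by far, and Fgf5 rose by 5.12 to day 4 (SE 0.506, limma adjusted p = 1.84e-06). Its change from day 4 to day 8 was -0.75 and was not called (limma adjusted p = 0.451). Otx2, a homeobox factor of the primed epiblast and forebrain, stood at 664 and 586, then 1923 and 1630, then 2013 and 2426, and rose by 1.50 to day 4 (limma adjusted p = 0.000166). Zic2, a zinc finger factor of the same state, went from 1237 and 1196 to 5128 and 4850 and rose by 2.03 (limma adjusted p = 3.07e-05). Dnmt3b, a de novo DNA methyltransferase, went from 14655 and 12338 to 49720 and 31971 and rose by 1.57 (limma adjusted p = 0.00386), with adjusted p = 0.0569 without day 4 replicate 1. Dnmt3l, its catalytically inactive partner, went the other way, from 5844 and 4786 to 1008 and 925, and fell by 2.45 (limma adjusted p = 1.93e-06).

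**Figure D2:**
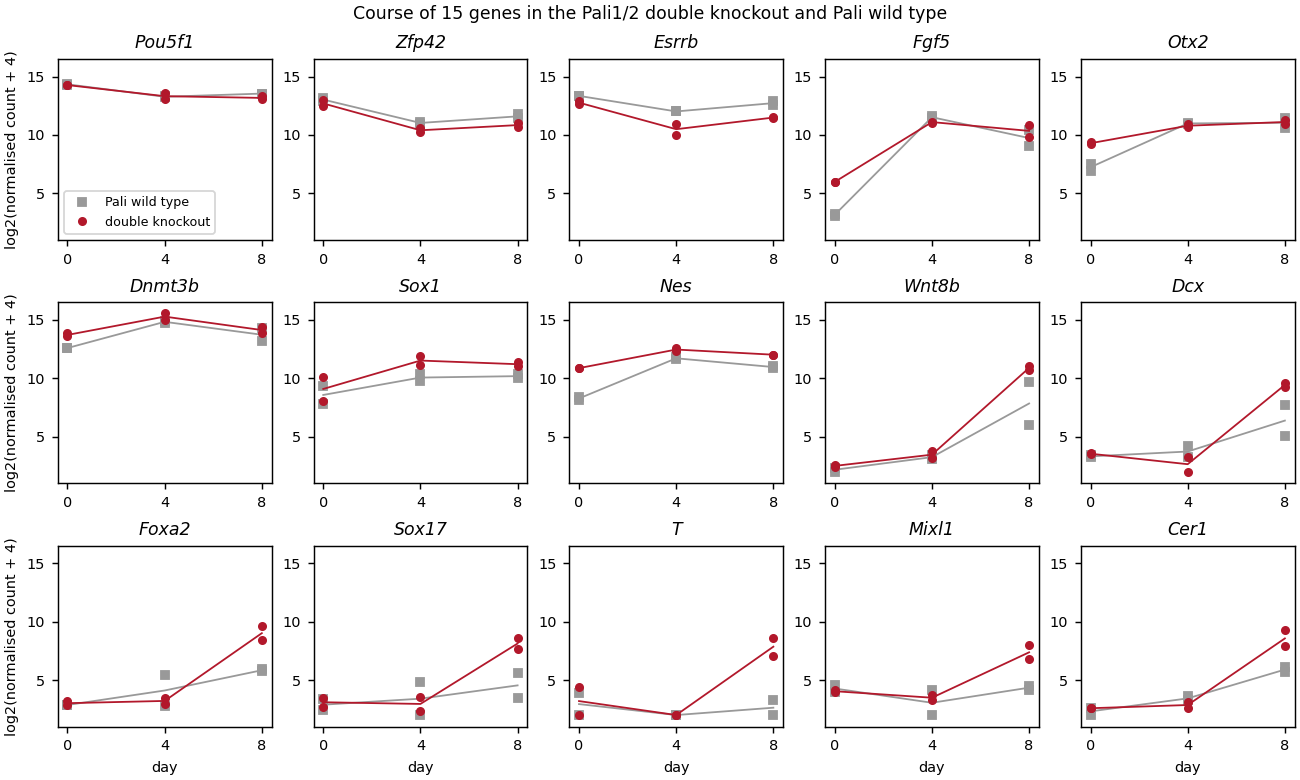
Log2(normalised count + 4) of 15 genes at day 0, 4 and 8, with a point for each library and a line through the means, for the double knockout (red circles) and Pali wild type (grey squares). In the double knockout Zfp42 and Esrrb are lowest at day 4, Fgf5 and Otx2 stand above their day 0 level at both later days, and Wnt8b, Dcx, Foxa2, Sox17, Mixl1 and Cer1 stand high at day 8 only.

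The largest rises by day 4 included signalling and adhesion genes outside these lists. Igfbp5, a secreted binding protein for insulin-like growth factors, went from 35.5 and 21.6 to 794 and 1758 and reached 2363 and 2126 at day 8. Its rise to day 4 was 5.22 (SE 0.505, limma adjusted p = 1.5e-06). Ptprm, a receptor tyrosine phosphatase of cell contacts, went from 0 and 7.19 to 214 and 261 and rose by 5.17 (limma adjusted p = 2.22e-06). Tacc2, a coiled-coil protein of the centrosome, went from 5.32 and 0 to 229 and 233 and rose by 5.27 (limma adjusted p = 0.00345). Hdac7, a class II histone deacetylase, was listed at 0 in both day 0 libraries, at 106 and 254 at day 4, and at 282 and 176 at day 8.

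Among the largest falls by day 4 were genes of signalling and of the actin cytoskeleton. Inhbb, the beta B subunit of activin and inhibin, went from 758 and 355 to 11.5 and 7.82 and was 30.3 and 10.0 at day 8. It fell by 5.27 to day 4 (SE 0.399, limma adjusted p = 1.36e-07). Myo1f, an unconventional myosin, went from 191 and 165 to 0.961 and 3.91, and fell by 4.86 (limma adjusted p = 1.89e-07). Ttn, the giant sarcomere protein titin, was not among the 10 largest falls. It went from 7860 and 8026 to 565 and 581, and fell by 3.78 (limma adjusted p = 1.84e-06). It stood at 2137 and 2394 at day 8 and rose by 1.97 from day 4 (limma adjusted p = 0.00281). Ttn is on the cardiac and muscle list, whose median change by day 4 was 0.25. Of the 15 tested members 5 rose by day 4 (33.3%) and 2 fell (13.3%), beside 13.6% and 13.9% of all tested genes. Of the 10 largest rises and 10 largest falls by day 4, 7 and 6 stayed called without each single library.

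**Figure D3:**
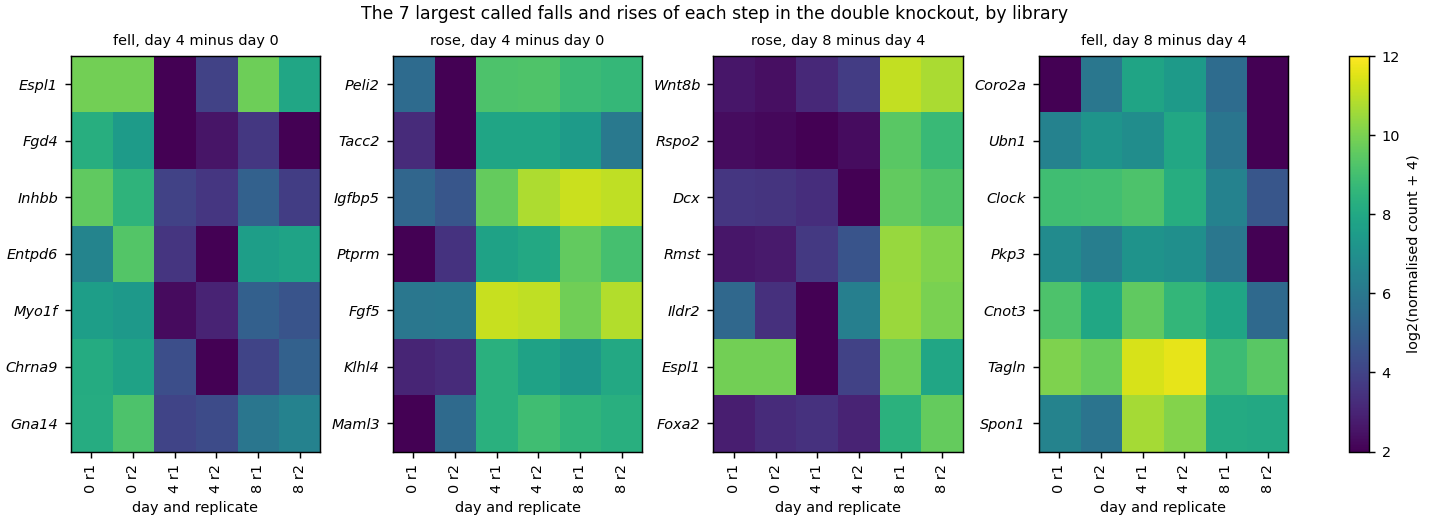
Heat maps of log2(normalised count + 4) in the 6 double knockout libraries (columns, day and replicate) for the 7 largest falls and rises of each step, taken from called genes whose mean reached 50 and whose 2 days held separate values. Inhbb and Myo1f are highest in both day 0 libraries, Igfbp5 and Ptprm are high from day 4 on, and Wnt8b, Rspo2 and Rmst are high at day 8 only.

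The cell cycle list and the metabolic lists held genes that fell by day 4. Of the tested cell cycle genes 42.1% fell and 10.5% rose, beside 13.9% and 13.6% of all tested genes. Of 38 tested cell cycle genes 16 fell and 4 rose, and 9 fell without day 4 replicate 2. The 4 that rose were Cdc6 and the cyclin-dependent kinase inhibitors Cdkn1a, Cdkn1b and Cdkn1c, and the other 18 were not called. Cdkn1a, which encodes p21, stood at 190 and 224 at day 0, 397 and 620 at day 4, and 799 and 654 at day 8, and rose by 1.25 to day 4 (limma adjusted p = 0.000469). Ccne1, the G1/S cyclin E1, stood at 5986 and 5844, then 3172 and 2789, then 2215 and 2467, and fell by 0.99 (limma adjusted p = 0.000161). Myc went from 708 and 807 to 202 and 194 and then to 349 and 429. It fell by 1.91 to day 4 (limma adjusted p = 2.86e-05) and rose by 0.95 from day 4 to day 8 (limma adjusted p = 0.0275).

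Of 33 tested glycolysis and hypoxia genes 14 fell by day 4 and 2 rose, and 8 fell without day 0 replicate 2 or without day 4 replicate 2. By day 4, 13.9% of all tested genes fell and 13.6% rose. The shares that fell were 42.4% here, 37.5% for cholesterol synthesis genes and 41.4% for germline and meiosis genes. Hk2, a hexokinase at the entry to glycolysis, went from 10460 and 10243 to 4595 and 4417, and fell by 1.20 (limma adjusted p = 0.000322). Of 24 cholesterol synthesis genes 9 fell and 0 rose, but the count was 4 without day 0 replicate 1, 3 without day 0 replicate 2 and 3 without day 4 replicate 2. Ebp, a sterol isomerase of this pathway, stood at 582 and 520, then 255 and 265, then 491 and 557. Its day 8 values overlapped those of day 0, since it fell by 1.07 to day 4 (limma adjusted p = 2.46e-05) and rose by 1.00 to day 8 (limma adjusted p = 0.000258). Of 29 germline and meiosis genes 12 fell and 0 rose by day 4, and 7 fell without day 0 replicate 1 and 8 without day 4 replicate 1.

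Within PRC2 itself, 4 of 14 tested subunit genes fell by day 4 and 0 rose, namely Eed, Jarid2, Mtf2 and Epop, and 4 fell without any 1 library. The 4 were 28.6% of those tested, beside 13.9% of all tested genes. Eed, the core subunit that binds methylated histone H3, stood at 4408 and 3675 at day 0, 1746 and 1884 at day 4, and 1963 and 1618 at day 8. It fell by 1.15 to day 4 (SE 0.139, limma adjusted p = 1.19e-05). Epop, an accessory subunit, went from 3099 and 2568 to 766 and 938 and fell by 1.73 (limma adjusted p = 6.15e-07). Jarid2, another accessory subunit, went from 7904 and 6489 to 4827 and 3546 and fell by 0.79 (limma adjusted p = 0.00207). No PRC2 subunit was called from day 4 to day 8. Among 26 PRC1 genes 4 rose (15.4%) and 3 fell (11.5%) by day 4, shares near those of all tested genes (13.6% and 13.9%). Auts2, a PRC1 partner, went from 477 and 444 to 1018 and 1013 and rose by 1.14 (limma adjusted p = 0.000313).

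Wnt8b, Rspo2 and Rmst were among the largest rises from day 4 to day 8. Wnt8b (chromosome 19, 44493472 to 44514273, plus strand), a Wnt ligand of the dorsal forebrain, stood at 2.03 and 1.31 at day 0, 4.81 and 9.77 at day 4, and 2152 and 1672 at day 8. Both day 8 values lay far above all 4 earlier ones, and Wnt8b rose by 7.43 from day 4 to day 8 (SE 0.741, limma adjusted p = 1.42e-05). Rmst, a long non-coding RNA of neural progenitors, stood at 8.65 and 20.5 at day 4 and at 1383 and 1094 at day 8, and rose by 6.13 (limma adjusted p = 1.57e-05). Rspo2 and Rspo3 encode R-spondins, secreted proteins that strengthen Wnt signalling. Rspo2 went from 0 and 0.977 to 690 and 431 and rose by 6.94 (limma adjusted p = 1.69e-05). Rspo3 went from 21.1 and 49.8 to 2037 and 1619 and rose by 5.63 (limma adjusted p = 5.06e-05). Zic1 (chromosome 9, 91358058 to 91365810, minus strand), a dorsal neural factor, went from 29.8 and 58.6 to 1560 and 1217 and rose by 4.91 (limma adjusted p = 0.000268). Zic4, its neighbour, was listed at 0 in all 4 earlier double knockout libraries and at 139 and 195 at day 8.

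Some neuroectoderm genes had begun to rise at the first step. By day 4, 34.2% of the tested members rose and 15.8% fell, beside 13.6% and 13.9% of all tested genes. Of 38 tested members 13 rose and 6 fell by day 4, with a median of 0.96, and 7 rose without day 4 replicate 2. From day 4 to day 8, 11 rose and 0 fell, and over the whole course 26 rose and 6 fell, with a median of 2.20. Nes, the progenitor filament nestin, stood at 1901 and 1842 at day 0, 6130 and 5191 at day 4, and 4148 and 4158 at day 8, and rose by 1.59 to day 4 (limma adjusted p = 5.81e-05). Pax3, a dorsal neural tube and crest factor, stood at 1.07 and 4.12, then 13.1 and 24.6, then 341 and 224. It rose by 1.79 to day 4 (limma adjusted p = 0.00593) and by 3.66 from day 4 to day 8 (limma adjusted p = 6.93e-05). Fabp7, a lipid-binding protein of radial glia, stood at 41.3 and 59.6 on day 4 and at 788 and 553 on day 8 and rose by 3.63 (limma adjusted p = 0.000189). The fallers by day 4 included Olig2, a factor of motor neuron and oligodendrocyte progenitors, which went from 364 and 417 to 68.2 and 85.0, and fell by 2.30 (limma adjusted p = 0.000227). Sox1 and Pax6, the usual early neural markers, gave less firm values. Sox1 stood at 263 and 1106, then 2225 and 3862, then 2637 and 2115, and its rise of 2.43 to day 4 (limma adjusted p = 0.0195) was lost without day 0 replicate 1 (adjusted p = 0.278) or day 4 replicate 2 (adjusted p = 0.138). Pax6, at 294 and 714, then 753 and 1116, then 1030 and 874, was not called.

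Some members of the neuronal list rose at each step. By day 4, 20.6% of the tested members rose and 8.82% fell, beside 13.6% and 13.9% of all tested genes. From day 4 to day 8, 32.4% rose, beside 5.33% of all tested genes. Of 34 tested members 7 rose and 3 fell by day 4, and 11 rose and 0 fell from day 4 to day 8, with 7 risers without day 4 replicate 1. The median changes of the list were 0.33 and 0.88, or 0.83 and 0.74 without members at 0 throughout a group, and the steps were not tested against each other. Dcx, the microtubule protein doublecortin of young neurons, stood at 8.13 and 7.20, then 5.78 and 0, then 766 and 615. It rose by 6.79 from day 4 to day 8 (SE 0.735, limma adjusted p = 2.4e-05). Neurog1, a proneural factor, stood at 0 and 0.977 on day 4 and at 58.5 and 59.2 on day 8 and rose by 3.82 (limma adjusted p = 4.17e-05). Myt1, a zinc finger factor of differentiating neurons, went from 0.952 and 0 to 93.9 and 151 and rose by 4.79 (limma adjusted p = 0.000111). Slc17a6, a vesicular glutamate transporter, went from 19.22 and 18.57 to 186 and 195 and rose by 3.09 (limma adjusted p = 0.00336). The neurofilament gene Nefm was called at the first step: it went from 27.4 and 9.15 at day 0 to 272 and 198, rose by 3.54 (limma adjusted p = 1.92e-05) and stood at 229 and 242 at day 8.

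Primitive streak, mesoderm and endoderm regulators rose from day 4 to day 8, many of them from values under 10. Of 30 tested streak and mesoderm genes 15 rose from day 4 to day 8 and 0 fell, with a median of 1.65 beside 0.02 for all tested genes. The count was 9 without day 4 replicate 1 and 5 with the spread of the 6 libraries alone. In bulk RNA, more cells of a type and more RNA per cell cannot be told apart. Lhx1, a homeobox factor of the axial mesoderm, stood at 0 and 1.31 at day 0, 0.961 and 3.91 at day 4, and 164 and 525 at day 8. It rose by 5.57 from day 4 (SE 0.601, limma adjusted p = 2.37e-05). Mixl1, a homeobox factor of the streak, stood at 13.2 and 11.8, then 5.77 and 8.79, then 105 and 247, and rose by 3.89 (limma adjusted p = 0.000439). Wnt8a, a Wnt ligand of the streak, stood at 5.77 and 8.79 on day 4 and at 129.5 and 272.4 on day 8 and rose by 4.10 (limma adjusted p = 9.27e-05). T, the streak factor Brachyury, was listed at 0 and 17.0 at day 0, at 0 in both day 4 libraries, and at 131 and 394 at day 8.

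Of 17 tested definitive endoderm genes 8 rose from day 4 to day 8 and 1 fell, with a median of 1.57. The count was 3 without day 4 replicate 1, without day 8 replicate 1 or without day 8 replicate 2. Foxa2 (chromosome 2, 148042877 to 148046969, minus strand), a pioneer factor of endoderm and the node, stood at 3.06 and 5.26, then 6.78 and 3.94, then 334 and 784. Its rise from day 4 was 5.80 (SE 0.768, limma adjusted p = 0.000151). Sox17, the HMG box factor of endoderm, stood at 7.08 and 2.60, then 1.11 and 7.70, then 196 and 386, and rose by 5.18 (limma adjusted p = 0.00134). Cer1, a secreted inhibitor of Nodal and BMP, stood at 2.03 and 1.96, then 1.92 and 4.89, then 231 and 604, and rose by 5.70 (limma adjusted p = 0.000179). Afp, the yolk sac product alpha-fetoprotein, was listed between 0 and 4.89 in all 6 libraries. Of 30 tested extraembryonic endoderm genes 0 rose at this step. By day 4, 7 of them had risen (23.3%, beside 13.6% of all tested genes) and 2 had fallen, with a median of 0.62. The 7 came to 3 without day 0 replicate 1 or replicate 2, and to 2 without day 4 replicate 2.

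The duplicates of day 8 differed in the balance of these groups. Lhx1, Mixl1, Wnt8a, Foxa2, Sox17 and Cer1 were each higher in replicate 2, whereas Wnt8b, Rmst, Rspo2, Zic1, Fabp7, Pax3 and Dcx were each higher in replicate 1. Of 22 streak, mesoderm and endoderm genes that rose at the second step, leaving out those on a neural list, 18 were higher in replicate 2, with a median log2 difference of 0.74. Of the 21 neural ones 5 were, with a median of -0.36, beside 324 of all 838 genes that rose. These are descriptions of a pair of libraries, with no test.

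**Figure D4:**
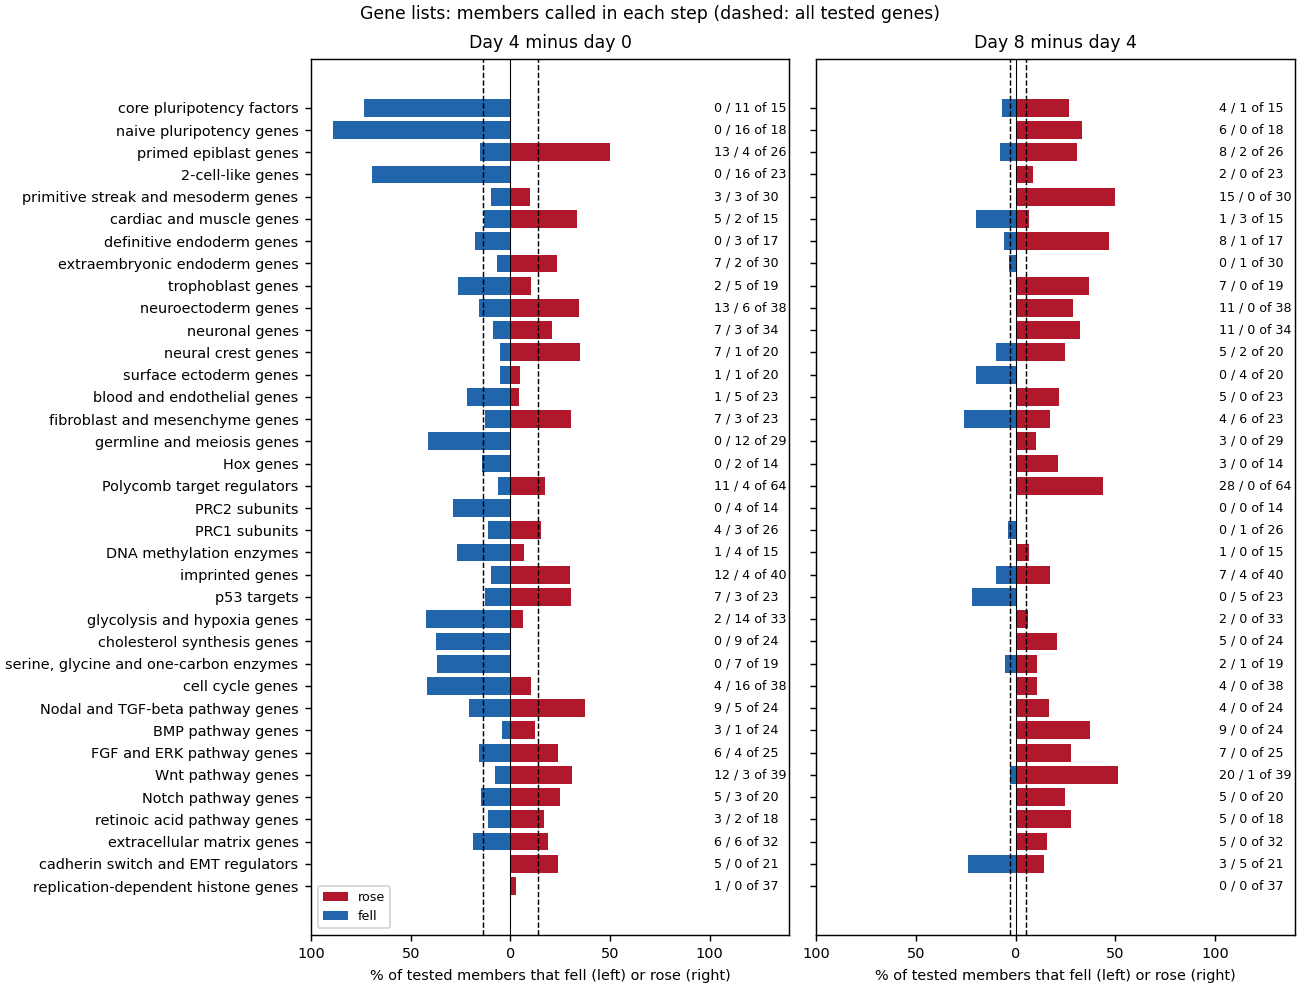
For each of the 36 gene lists, the percentage of tested members that rose (red, right) or fell (blue, left) from day 0 to day 4 and from day 4 to day 8, with the numbers at the right edge and dashed lines at the share of all tested genes. Naive, core pluripotency and 2-cell-like genes have the longest blue bars at the first step, and Wnt, streak and mesoderm, endoderm and Polycomb target genes the longest red bars at the second.

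Polycomb target regulators, genes for developmental factors that carry PRC2's mark in stem cells, rose from day 4 to day 8. Of 64 tested members 11 rose and 4 fell by day 4, beside 13.6% and 13.9% of all tested genes, with a median of 0.44, and 3 rose without day 0 replicate 1 or without day 4 replicate 2. From day 4 to day 8, 28 rose and 0 fell, with a median of 1.46, and the risers numbered 17 without day 4 replicate 1, 16 without day 8 replicate 1 and 14 with the spread of the 6 libraries alone. Over the whole course 37 rose and 2 fell, with a median of 2.15 beside 0.03 for all tested genes, and 28 to 33 rose without any 1 library. The list holds neural and mesodermal factors already described, such as Pax3, Zic1, Lhx1 and Foxa2. Sox9, a factor of neural crest and cartilage, stood at 8.11 and 5.88, then 70.2 and 66.5, then 358 and 329. It rose by 2.72 to day 4 (limma adjusted p = 0.00499, or 0.077 without both libraries with the other description) and by 2.26 from day 4 to day 8 (limma adjusted p = 0.0443). Evx1, a homeobox factor of the posterior streak, stood at 0.961 and 0 on day 4 and at 38.6 and 111 on day 8 and rose by 3.97 (limma adjusted p = 0.000441). Lhx5, a forebrain homeobox factor, stood at 2.03 and 4.57, then 49.0 and 137, then 257 and 259, and rose by 3.59 already by day 4 (limma adjusted p = 0.000131). The members that fell over the course were Olig1 and Olig2.

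Most Hox genes, the classical Polycomb targets of the body axis, did not pass the filter on low values. Of 39 listed, 38 had values and 14 passed. Of these 0 rose and 2 fell by day 4 (14.3%, near the 13.9% of all tested genes). The fallers numbered 4 without day 0 replicate 1 and 0 without day 0 replicate 2 or day 4 replicate 2. Then 3 rose from day 4 to day 8 (21.4%, beside 5.33% of all tested genes), with 1 riser left without day 4 replicate 1 or without day 8 replicate 1. Hoxb2 stood at 0 and 4.57, then 2.88 and 3.91, then 50.1 and 26.8, and rose by 2.47 from day 4 (limma adjusted p = 0.0018), with adjusted p = 0.098 when the spread came from the 6 libraries alone. Hoxb1 stood at 21.3 and 22.2, then 15.4 and 9.77, then 47.0 and 39.1, and its rise of 1.52 (limma adjusted p = 0.0222) was lost without day 4 replicate 2 (adjusted p = 0.15), among others.

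Some Wnt pathway genes rose at each step. By day 4, 30.8% of the tested members rose and 7.69% fell, beside 13.6% and 13.9% of all tested genes. From day 4 to day 8, 51.3% rose and 2.56% fell, beside 5.33% and 2.62%. Of 39 tested Wnt pathway genes 12 rose and 3 fell by day 4, then 20 rose and 1 fell by day 8, with a median of 1.39. Both counts of risers were lower when any 1 of the compared libraries was left out, and such a recount can hold other members. Of the early risers, 6 were receptor or co-receptor genes. Fzd8 went from 102 and 118 at day 0 to 470 and 602 and rose by 2.23 (limma adjusted p = 1.89e-07). Fzd2 went from 358 and 414 to 1494 and 1921 and rose by 2.13 (limma adjusted p = 4.37e-06), whereas the receptor gene Fzd5 went from 2883 and 2889 to 1312 and 1298, and fell by 1.14 (limma adjusted p = 2.77e-06). The later risers included 8 ligands and 3 R-spondins. Wnt1, a ligand of the midbrain and dorsal neural tube, stood at 0.961 and 2.93 on day 4 and at 114 and 51.4 on day 8 and rose by 3.78 (limma adjusted p = 4.49e-05). Nkd1, a feedback inhibitor and Wnt target, stood at 69.9 and 86.2, then 231 and 200, then 918 and 855, and rose by 2.02 at the second step (limma adjusted p = 0.000103). Frzb, a secreted Wnt antagonist, stood at 1.01 and 3.27, then 61.5 and 276, then 626 and 817, and rose by 6.90 over the whole course (limma adjusted p = 6.18e-07).

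Of 24 BMP pathway genes 9 rose and 0 fell from day 4 to day 8, with a median of 1.22, and 3 rose without day 4 replicate 1. The 9 were 37.5% of the list, beside 5.33% of all tested genes. Bmp6, a ligand, went from 20.2 and 19.5 to 209 and 146 and rose by 2.91 (limma adjusted p = 0.000858). Nog, the secreted antagonist noggin, went from 6.73 and 14.7 to 120 and 141 and rose by 3.24 (limma adjusted p = 0.000916). Bmp4 was highest in the undifferentiated cells: it stood at 382 and 216, then 24.5 and 33.1, then 170.3 and 128.8, and fell by 3.16 to day 4 (limma adjusted p = 9.74e-05). Of 24 Nodal and TGF-beta genes 9 rose and 5 fell by day 4, with 5 risers without day 0 replicate 1. The 9 and 5 were 37.5% and 20.8% of this list, beside 13.6% and 13.9% of all tested genes. The effector Smad3 rose by 1.73, from 362 and 455 to 1365 and 1340 (limma adjusted p = 8.97e-06). The ligand Gdf3 fell by 1.87, from 1573 and 1862 to 494 and 440 (limma adjusted p = 0.000197).

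Of 20 Notch pathway genes 5 rose (25%) and 3 fell (15%) by day 4, beside 13.6% and 13.9% of all tested genes. The number of risers did not change without any 1 library. Hes1, a Notch target and repressor of neurogenesis, stood at 336 and 366, then 573 and 722, then 691 and 974, and rose by 0.87 to day 4 (limma adjusted p = 0.00133). Of 18 retinoic acid genes 3 rose (16.7%) and 2 fell (11.1%) by day 4, near the shares of all tested genes (13.6% and 13.9%), and 5 rose and 0 fell at the second step, with 3 risers without day 8 replicate 2. Both directions occurred among receptor genes: Rxra went from 99.4 and 131 to 541 and 498 and rose by 2.15 (limma adjusted p = 3.99e-06), and Rarg went from 2924 and 2786 to 1075 and 1016 and fell by 1.45 (limma adjusted p = 4.01e-05). Cyp26b1, an enzyme that degrades retinoic acid, was listed at 0 in all 4 earlier libraries and at 333 and 241 at day 8. Of 25 FGF and ERK genes 6 rose (24%) and 4 fell (16%) by day 4, beside the same 13.6% and 13.9%. The median change was 0, and 4 rose without day 0 replicate 1 or without day 4 replicate 2. At the second step 7 rose (28%) and 0 fell, beside 5.33% and 2.62% of all tested genes. Spry1, a feedback inhibitor of ERK, stood at 487 and 551, then 842 and 986, then 3161 and 3098, and rose by 1.78 at the second step (limma adjusted p = 3.08e-05).

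Imprinted genes, which are read from 1 parental copy, changed in both directions. Of 40 tested members 12 rose (30%) and 4 fell (10%) by day 4, beside 13.6% and 13.9% of all tested genes, with 6 risers without day 0 replicate 1 and 8 without day 4 replicate 2, and 7 rose (17.5%) and 4 fell (10%) from day 4 to day 8, beside 5.33% and 2.62% of all, with 4 risers without day 4 replicate 1 or without day 8 replicate 1. Magel2, of the Prader-Willi cluster, went from 56.8 and 94.7 to 829 and 653 by day 4 and rose by 3.25 (limma adjusted p = 2.33e-05). Igf2, the fetal insulin-like growth factor, stood at 178 and 254, then 333 and 420, then 1977 and 1537, and rose by 2.21 at the second step (limma adjusted p = 0.000989). Plagl1, a zinc finger regulator of growth, stood at 24.99 and 66.45 on day 4 and at 514 and 460 on day 8 and rose by 3.44 (limma adjusted p = 0.000349). Meg3, a maternally expressed non-coding RNA, rose and then fell: it stood at 2365 and 2425, then 4169 and 3932, then 1885 and 1981, with changes of 0.76 (limma adjusted p = 0.00488) and -1.07 (limma adjusted p = 0.00132).

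A smaller group of genes peaked at day 4. Spon1, the matrix protein spondin 1, stood at 85.2 and 54.2, then 1609 and 1119, then 274 and 261. It rose by 4.22 (limma adjusted p = 5.22e-06), and its fall of 2.31 from day 4 to day 8 (limma adjusted p = 0.00463) had adjusted p = 0.0645 without day 4 replicate 1. Rhbdl3, a rhomboid-like membrane protein, stood at 20.3 and 14.4, then 187 and 160, then 42.8 and 39.1, with changes of 3.07 (limma adjusted p = 2.98e-06) and -1.98 (limma adjusted p = 0.000828). The contractile genes Myl9 and Tpm1 did likewise. Myl9, a myosin light chain of smooth muscle, stood at 295 and 284, then 953 and 953, then 383 and 489, with changes of 1.71 (limma adjusted p = 0.000392) and -1.13 (limma adjusted p = 0.0275). Clock, the circadian transcription factor, fell at the second step only. It stood at 481 and 495, then 588 and 298, then 81.4 and 21.2, and fell by 3.19 from day 4 to day 8 (limma adjusted p = 0.000431), with adjusted p = 0.088 when the spread came from the 6 libraries alone.

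Whether these changes differed from those of Pali wild type was tested as a difference of differences. A difference between genotypes and one between the lines or clones that carry them cannot be told apart, here or against the Pali1 knockout. Few genes passed, beside the 4320, 1249 and 4855 called within the line. A difference of 2 changes draws on 4 groups and carries a larger error than 1 change, so these counts are not like for like. Few calls therefore do not show that the courses were alike. At an unadjusted p under 0.05 (limma) the 3 differences held 1604, 1074 and 2160 genes, and the changes within the line 5851, 3222 and 6339. At an adjusted p under 0.05, the change from day 0 to day 4 was higher in the double knockout for 16 genes (0.102% of those tested) and lower for 59 (0.376%). From day 4 to day 8 it was higher for 6 (0.0382%) and lower for 4 (0.0255%), and over the whole course higher for 67 (0.426%) and lower for 109 (0.694%). Leaving out single libraries moved the 3 sums of 75, 10 and 176. The first was 44 without day 4 replicate 1 of the double knockout, 46 without its day 0 replicate 1 and 47 without Pali wild type day 4 replicate 1. The second was 27 without day 4 replicate 2 of the double knockout, 18 without Pali wild type day 4 replicate 2 and 33 without Pali wild type day 8 replicate 1. The third was 44 without Pali wild type day 8 replicate 2 and 304 without its replicate 1, 98 without Pali wild type day 0 replicate 2, and 58, 109, 62 and 74 without double knockout day 0 replicate 1, day 0 replicate 2, day 8 replicate 1 and day 8 replicate 2.

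Several genes with strongly negative differences were already high in the undifferentiated double knockout. Thbs1, the matrix protein thrombospondin 1, stood at 1574 and 1213 at day 0, 2505 and 3781 at day 4, and 1966 and 1518 at day 8 in the double knockout. In Pali wild type it stood at 34.0 and 13.9, then 2782 and 3062, then 1567 and 1586. Only the day 0 groups lay apart, and the day 4 minus day 0 change was lower by 5.66 in the double knockout (SE 0.933, limma adjusted p = 0.00747, or 0.152 without both libraries with the other description). Acta2, smooth muscle actin, stood at 264 and 250, then 319 and 405, then 220 and 207, with no call between days, whereas Pali wild type went from 9.86 and 8.55 to 515 and 544 at day 8. Its change over the whole course was lower by 5.60 (limma adjusted p = 0.00182). Trpc1, a cation channel, stood at 83.3 and 85.3, then 122 and 181, then 70.2 and 104, beside 2.15 and 0 at day 0 and 263 and 204 at day 4 in Pali wild type, and its day 4 minus day 0 change was lower by 4.78 (limma adjusted p = 0.00059). Lrp2, the endocytic receptor megalin, stood at 8802 and 9232, then 18652 and 18768, then 8303 and 7855, beside 2625 and 2583 and then 30302 and 25990 in Pali wild type at days 0 and 4. Its day 4 minus day 0 change was lower by 2.37 (limma adjusted p = 0.00059). Otx2 stood at 181 and 120 at day 0 in Pali wild type, below the 664 and 586 of the double knockout, and its rise to day 4 was lower by 2.25 (limma adjusted p = 0.00461), with adjusted p = 0.062 without both libraries with the other description.

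Thbs1, Acta2 and Tagln belong to the list of fibroblast and mesenchyme genes. The list was chosen to mark cells of these types, but some members were abundant in the undifferentiated cultures of both lines. Of its 23 tested members 8 had a lower change over the whole course in the double knockout and 0 a higher one, with a median difference of -1.47 beside 0 for all tested genes. The 8 came to 5 without double knockout day 0 replicate 1 or replicate 2, and to 4 without its day 8 replicate 1 or without Pali wild type day 8 replicate 2. The mean log2 level of the list in the double knockout was 7.57 to 7.69 at day 0, 7.91 to 8.09 at day 4 and 7.92 to 7.95 at day 8. In Pali wild type it was 5.48 to 5.70 at day 0, 7.45 to 7.51 at day 4 and 7.82 to 7.95 at day 8. The summed level, which its most abundant members set, was 28111 to 31245 at day 0 in the double knockout and 27324 to 27334 in Pali wild type. Cnn1 and Postn were listed at 0 in both day 0 libraries of Pali wild type, and no member was in any double knockout group. The part of fibroblast or mesenchyme cells in the differences of course was not tested.

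**Figure D5:**
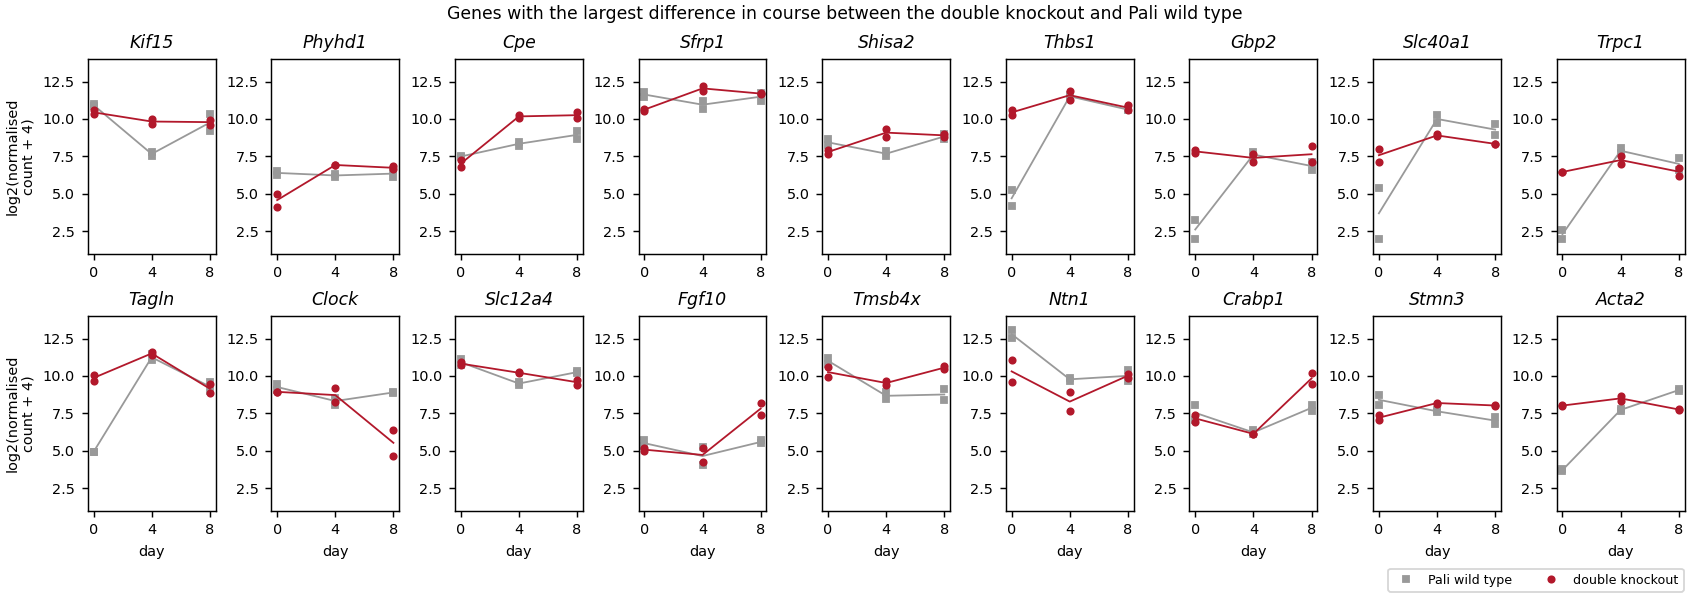
Log2(normalised count + 4) at day 0, 4 and 8 in the double knockout (red circles) and Pali wild type (grey squares), a point for each library and a line through the means, for the 18 genes with the largest called differences in change among those that averaged 50 or more and were not at 0 throughout a group. Thbs1, Gbp2, Trpc1, Tagln and Acta2 start high in the double knockout and low in Pali wild type, whereas Cpe rises further in the double knockout.

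A few genes changed more in the double knockout. Cpe, a carboxypeptidase that processes neuropeptides, stood at 107 and 148 on day 0 and at 1080 and 1224 on day 4, beside 173 and 179 and then 354 and 291 in Pali wild type. Its rise to day 4 was higher by 2.30 (SE 0.371, limma adjusted p = 0.00608). Sfrp1, a secreted Wnt antagonist, went from 1503 and 1653 to 3746 and 4752, beside 2774 and 3628 and then 1632 and 2403, so the lines moved in opposite directions and the difference was 2.10 (limma adjusted p = 0.00561). Shisa2, an inhibitor of Wnt and FGF receptor maturation, went from 242 and 197 to 451 and 649, beside 298 and 395 and then 181 and 224, with a difference of 2.05 (limma adjusted p = 0.00562). Tmsb4x, the actin-binding peptide thymosin beta 4, stood at 965 and 1548 at day 0 and 1592 and 1419 at day 8, beside 1780 and 2395 and then 546 and 340. Its change over the whole course was higher by 2.55 (limma adjusted p = 0.00565), with adjusted p = 0.0545 without both libraries with the other description. Zic4 was listed at 0 in all 6 Pali wild type libraries, and Cyp26b1 stood at 13.1 and 6.69 in Pali wild type at day 8 after 0 in its earlier libraries.

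The same was done against the Pali1 knockout, labelled Pali1-/- alone. The change from day 0 to day 8 was higher for 25 genes (0.159%) and lower for 77 (0.490%). The sum of 102 was 22 without Pali1 knockout day 8 replicate 2, 62 without its day 8 replicate 1 and 24 without its day 0 replicate 1. It was 30, 25 and 34 without double knockout day 0 replicate 2, day 8 replicate 1 and day 8 replicate 2. The call of Lrp2 held without each single library. Lrp2 stood at 1697 and 1914 at day 0 and 14257 and 16594 at day 8 in the Pali1 knockout, beside 8802 and 9232 and then 8303 and 7855 in the double knockout, and its change was lower by 3.25 in the double knockout (SE 0.278, limma adjusted p = 6.99e-06). Prr5l, a partner of the mTORC2 kinase complex, stood in the double knockout at 87.8 and 78.6 on day 0 and at 9.35 and 5.55 on day 8, beside 40.0 and 34.7 and then 89.5 and 230 in the Pali1 knockout. Its change was lower by 4.79 in the double knockout (limma adjusted p = 0.0108). In the Pali1 knockout, Tmsb4x was at 0 in each day 0 library and at 848 and 1271 at day 8.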

How the data were processed

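RNA depleted of ribosomal RNA was measured in the 6 double knockout libraries and 24 others. The authors deposited a table of normalised counts per gene (a signal that is not whole numbers, here for 20563 gene symbols), and the submitters' processing notes list mm10, DESeq2, HISAT2 2.0.5 and kallisto 0.43.1, with no word on which of them made it. Low values were whole multiples of 1 read for 82.6% to 86.1% of genes in the 6 libraries, short of nearly all, so no count model was used. The depth estimated from those steps was 14111210 to 26648046 reads.

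Values were analysed on the log2(value + 4) scale with limma 3.58.1 in R 4.3.3, with a mean for each of the 15 groups, the spread shared over all 30 libraries (15 residual degrees of freedom), and trended, robust moderation. Tests covered the 15712 genes that reached 10 in 2 or more libraries, with Benjamini-Hochberg adjustment over all of them for each contrast. Of these, 14097 reached it in 2 of the 6 double knockout libraries. Data with normal errors on the log2 scale were simulated for day 8 minus day 0 over 15712 genes. The test called 65 of 100 genes given a 2-fold change, 88 of 100 given a 4-fold change, and 7 genes given none. The changed genes were drawn only from those that averaged at least 50 in the double knockout libraries. Recovery among lower genes was therefore not measured. All other genes were given no change between the double knockout days, whereas 4855 genes were called in the data. The adjusted threshold therefore differed from that of the reported test, and these rates do not carry over to it.

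Named genes are markers of the course, the 10 largest called changes per direction (mean of at least 50, no overlap between the groups, not listed at 0 throughout a group, duplicates not discordant), up to 3 listed at 0 in the lower group, up to 3 members per list and direction by adjusted p, the 5 largest with opposite steps, and the 5 largest differences per direction between lines. Symbols of unnamed models were passed over, and 1 gene is not reported here. All members, lists and rules were chosen with earlier results of these data known. Coordinates come from GENCODE M21 (GRCm38), where 20090 symbols were found once, and promoter sequences from RefSeq. The 29 alternatives tried are treated in the closing section.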

Additional observations from a re-analysis of the deposited data

Results flagged for a closer look

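The results here were singled out because the change between days differed between the double knockout and another line by a test of that difference (limma, Benjamini-Hochberg over 15712 genes). Values are differences of log2 changes, double knockout minus the other line. Highest and lowest are read among called genes that averaged 50 or more and were not at 0 throughout a group. Their changes between single libraries also did not overlap between the lines. Larger differences of genes at 0 in a group, such as Zic4, are therefore not ranked. For day 4 minus day 0 against Pali wild type 75 genes passed. The highest were Kif15 (2.65), a mitotic kinesin, Phyhd1 (2.52), Cpe (2.30), Sfrp1 (2.10) and Shisa2 (2.05), and the lowest were Thbs1 (-5.66), Gbp2 (-5.44), Slc40a1 (-4.98), the iron exporter ferroportin, Trpc1 (-4.78) and Tagln (-4.68). Of these 10, the calls of Cpe, Sfrp1, Shisa2, Thbs1 and Trpc1 held without each single library. Gbp2, an interferon-induced GTPase, stood at 211 and 239 at day 0 in the double knockout and at 5.48 and 0 in Pali wild type, and at 135 and 202 beside 169 and 221 at day 4. Its call was lost without day 4 replicate 1 of the double knockout (limma adjusted p = 0.0666).

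For day 8 minus day 4 against Pali wild type 10 genes passed, among them Clock (-3.76) and Slc12a4 (-1.39), a potassium-chloride cotransporter. Both calls were lost without several single libraries, among them day 4 replicate 1 of the double knockout (limma adjusted p = 0.196 for Clock and 0.0813 for Slc12a4).

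For day 8 minus day 0 against Pali wild type 176 genes passed. The highest were Fgf10 (2.66), Tmsb4x (2.55), Ntn1 (2.49), Crabp1 (2.34) and Stmn3 (2.20), and the lowest were Thbs1 (-5.60), Acta2 (-5.60), Tagln (-5.08), Slc40a1 (-4.83) and Trpc1 (-4.67). The calls of Tmsb4x, Thbs1, Acta2 and Trpc1 held without each single library. Fgf10, an FGF ligand of mesenchyme, stood at 32.5 and 27.4 at day 0 and 167 and 296 at day 8 in the double knockout, beside 49.3 and 35.3 and then 41.1 and 47.8, and its call was lost without day 8 replicate 2 of the double knockout (limma adjusted p = 0.0719). Ntn1, the axon guidance factor netrin 1, stood at 758 and 2103 at day 0 in the double knockout, so its duplicates differed widely there, and at 5805 and 8646 in Pali wild type.

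For day 8 minus day 0 against the Pali1 knockout 102 genes passed. The highest were Mir9-3hg (3.80), Lgalsl (3.35), Rasgrp1 (2.59), Pmaip1 (2.47) and Id4 (2.33), and the lowest were Prr5l (-4.79), Acta2 (-4.18), Lrp2 (-3.25), Has2 (-3.05) and Irx3 (-2.91). Of these the calls of Prr5l and Lrp2 held without each single library. Mir9-3hg, a host RNA of a neural microRNA, stood at 21.5 and 28.3 at day 0 and 198 and 176 at day 8 in the double knockout, and at 38.9 and 21.3 and then 15.8 and 8.50 in the Pali1 knockout.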

How the results depend on the processing

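Of 572 called values of named genes, 306 were called under every alternative that could be run, 266 were lost under at least 1, and 0 reversed. Counts of called genes are given here in the order day 4 minus day 0, day 8 minus day 4, day 8 minus day 0, then the 3 differences from Pali wild type in the same order and the difference from the Pali1 knockout. With a change of at least 2-fold required as well, the first 3 were 1977, 763 and 2293. With the spread of the double knockout libraries alone, day 8 minus day 4 gave 440. Without the libraries whose descriptions name the other culture state the first 3 were 1963, 512 and 3139, and the differences from Pali wild type by day 4 and over the whole course 17 and 41. The difference from Pali wild type in the second step was 31 genes with a pseudocount of 16, 21 with no filter on low values and 0 with a filter at a mean of 50 (10 as reported, with 1074 genes at an unadjusted p under 0.05), and the difference from the Pali1 knockout was 161 with a pseudocount of 16. The cause of these shifts was not tested, apart from the smaller number of samples or genes that some of them use.

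Leaving out 1 library at a time gave 2695 to 3501, 535 to 890, 3213 to 3917, 44 to 98, 11 to 33, 44 to 304 and 22 to 133 calls. Same-numbered libraries did not deviate together (correlation of deviations 0.05, 0.05 and 0.04 for days 0 and 4, 0 and 8, and 4 and 8, and 0.15, 0.04 and 0.01 over genes with a mean of 50 or more), and were treated as sharing only a number. With the replicate number as a block the counts were 4435, 1270, 4977, 91, 14, 154 and 128. Totals limit low genes most: genes under about 10 normalised counts were rarely tested, and 1585 genes of the table are listed at 0 in all 6 libraries.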

Other observations

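Members of other lists also rose or fell in the double knockout, where 13.6% and 13.9% of all tested genes did by day 4 and 5.33% and 2.62% from day 4 to day 8. Of 20 tested neural crest genes 7 rose and 1 fell by day 4, and 5 rose and 2 fell from day 4 to day 8. The first 7 came to 4 without day 0 replicate 1 or without day 4 replicate 2, and the 5 to 3 without day 4 replicate 1 or without day 8 replicate 1. Tfap2b, an AP-2 factor of the crest, was listed at 0 and 0 at day 0, 4.81 and 0 at day 4, and 133 and 108 at day 8, and rose by 4.38 at the second step (limma adjusted p = 0.000272). Prrx1, a homeobox factor of mesenchyme, stood at 16.8 and 10.2, then 34.5 and 22.4, then 256 and 256, and rose by 3.03 (limma adjusted p = 0.000549). Of 23 blood and endothelial genes 5 rose and 0 fell at the second step, with 1 riser without day 4 replicate 1 or without day 8 replicate 2. Flt1, a VEGF receptor, stood at 22.3 and 35.3, then 99.0 and 80.1, then 382 and 942, and rose by 2.70 (limma adjusted p = 0.000683), or with adjusted p = 0.0684 from the spread of the 6 libraries alone. Of 19 trophoblast genes 7 rose and 0 fell at the second step, with 3 risers without day 4 replicate 1 or without day 8 replicate 1.

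Of 32 matrix genes 6 rose and 6 fell by day 4 (18.8% each), with 1 riser without day 4 replicate 2, and 5 rose and 0 fell at the second step, with 2 without day 8 replicate 1. Col2a1, the cartilage and notochord collagen, stood at 213 and 192, then 723 and 1890, then 3652 and 2613, and rose by 2.51 to day 4 (limma adjusted p = 4.01e-05). Fn1, fibronectin, stood at 15681 and 12184, then 5354 and 5003, then 13269 and 13372. It fell by 1.42 to day 4 (limma adjusted p = 0.000878), rose by 1.36 to day 8 (limma adjusted p = 0.00451), and its day 8 values overlapped those of day 0. Cldn3 and Cldn4 encode claudins, proteins of tight junctions. Cldn3 stood at 96.4 and 92.1, then 272 and 315, then 112 and 125, and fell by 1.28 from day 4 to day 8 (limma adjusted p = 0.000615). Cldn4 stood at 1872 and 1381, then 1428 and 1824, then 553 and 664, and fell by 1.41 (limma adjusted p = 0.000494).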
